A study of Mus musculus with 20 samples.

Results

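The 44 genes described here lie around Pdgfra on mouse chromosome 5, in the order in which the gene table places them from Tlr6 to Cep135, and were followed across clonal fibroblast lines. They were taken by symbol from the genes of that stretch, with Pdgfra itself and Clock left out, and make up 44 of the 18193 genes measured. They are not the whole stretch, which holds 27 measured genes besides Pdgfra, Clock included, that are no members. Of these 27, 8 passed the background limit given below in at least 4 lines, against 40 of the 44 members. The stretch was placed around Pdgfra because Pdgfra was much lower in the preadipose lines, so the difference between the preadipose and the non-adipogenic lines chose the location. Values and counts of calls for that difference are therefore given as a description. Tests on the members are read only for differences between lines of the same class.

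Pdgfra, Kit and Kdr are neighbouring genes that encode receptor tyrosine kinases, the receptors for platelet-derived growth factor, stem cell factor and vascular endothelial growth factor. Pdgfra is known from fibroblasts and fat-cell progenitors, Kit from mast cells, melanocytes and blood progenitors, and Kdr from endothelium. Most of the other members have everyday tasks in the cell, such as sugar-nucleotide metabolism, Golgi and endosome traffic, ubiquitin transfer, DNA replication and RNA processing.

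RNA from 7 clonal lines was measured on 20 single-channel 3' expression arrays; all lines descend from Swiss 3T3, mouse embryo fibroblasts that divide without limit in culture. The preadipose lines, which can become fat cells, were Swiss 2, Swiss 8 and Swiss 9 with 3 arrays each and Swiss 19 with 2 arrays. The non-adipogenic lines were Swiss 3, Swiss 5 and Swiss 22 with 3 arrays each. Cells of all 7 lines were grown in DMEM with bovine serum, conditions that do not start differentiation, and were taken while still dividing, with no other treatment named. Each line is 1 clone, so a difference between lines is a difference between clones. Nothing in the labels ties the arrays of 1 line to different cultures, so p-values made from arrays rest on a spread that may be technical.

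Levels are given as scaled intensity, each array multiplied so that its trimmed mean was 500. Bacterial control probe sets to which no RNA had been added gave each line a background limit, between 76.9 and 144, and a gene is called above background in the lines whose mean passed it. The lines carried the fibroblast label: all 9 measured fibroblast markers were above background in all 7 lines, with summed levels of 332330 to 414780 in preadipose and 271620 to 288850 in non-adipogenic lines. Of 8 endothelial markers 1 was above background in all lines, and Pecam1 and Tie1 in none. Of 10 leukocyte and mast cell markers 2 were above background in all lines, and Ptprc, Itgam, Fcer1a and Hdc in none. Of 7 melanocyte markers 3 were above background in all lines and 0 in none, of 5 epithelial markers 2 and 1, and of 5 neuronal markers 2 and 1. The arrays differed in brightness, with the deposited mean intensity lowest on the Swiss 2 arrays (25.6 to 30.6) and highest on the Swiss 19 arrays (142 to 157). By their hybridization spikes, 11 arrays were dim (all of Swiss 2, 8 and 9 and 2 of Swiss 3) and 9 bright.

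Start-site sequences are shown for 4 genes of the stretch, because the members Fip1l1 and Chic2, on one side of Pdgfra, were low in the preadipose lines, while Kit, on its other side, stayed near background in both classes. The sequences come from RefSeq on GRCm38.p6 and run from 250 bases before to 50 bases after the gene's start, with each CG pair in capitals. Fip1l1 lies at chr5:74535241-74535540 (plus strand), Chic2 at chr5:75044592-75044891 (minus strand), Pdgfra at chr5:75152001-75152300 (plus strand) and Kit at chr5:75574737-75575036 (plus strand).
Fip1l1: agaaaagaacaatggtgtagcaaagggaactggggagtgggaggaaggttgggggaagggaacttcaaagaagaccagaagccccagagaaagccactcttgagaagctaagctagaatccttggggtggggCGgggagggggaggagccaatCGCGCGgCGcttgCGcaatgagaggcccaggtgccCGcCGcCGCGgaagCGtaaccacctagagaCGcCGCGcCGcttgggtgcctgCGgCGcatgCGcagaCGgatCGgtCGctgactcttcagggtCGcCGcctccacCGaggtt
Chic2: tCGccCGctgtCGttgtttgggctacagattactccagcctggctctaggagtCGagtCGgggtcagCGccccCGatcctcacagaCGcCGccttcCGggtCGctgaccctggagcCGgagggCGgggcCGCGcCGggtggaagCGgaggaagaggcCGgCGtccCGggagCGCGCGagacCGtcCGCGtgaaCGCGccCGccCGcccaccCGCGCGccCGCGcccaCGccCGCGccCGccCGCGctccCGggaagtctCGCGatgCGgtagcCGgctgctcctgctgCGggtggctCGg
Pdgfra: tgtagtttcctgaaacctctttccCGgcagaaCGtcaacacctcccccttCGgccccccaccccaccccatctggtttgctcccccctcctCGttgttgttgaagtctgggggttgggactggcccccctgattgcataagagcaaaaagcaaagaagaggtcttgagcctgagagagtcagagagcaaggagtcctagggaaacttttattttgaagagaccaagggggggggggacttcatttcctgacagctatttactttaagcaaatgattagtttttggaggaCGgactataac
Kit: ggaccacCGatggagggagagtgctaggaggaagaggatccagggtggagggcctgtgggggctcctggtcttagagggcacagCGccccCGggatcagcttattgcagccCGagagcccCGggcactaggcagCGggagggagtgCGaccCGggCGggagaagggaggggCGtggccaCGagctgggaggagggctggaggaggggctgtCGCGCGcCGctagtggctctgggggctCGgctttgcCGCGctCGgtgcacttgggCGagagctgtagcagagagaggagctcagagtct
The Chic2 stretch holds 48 CG pairs, that of Fip1l1 24, that of Kit 20 and that of Pdgfra 5. Of the 44 members, 42 were matched in the RefSeq table. They held a median of 24 CG pairs per 300 bases, against 7 over the 27025 genes of the table, and 37 of them (88.1%) held at least 10, against 43.94% of all genes. The genes of the table were not limited to those measured or above background here, and no share over those was counted. The first listed start of each gene was used, and 8 members had several. The 6 letters TATAAA, searched on both strands, were found in 2 members, Ociad2 and Sgcb (4.76%), against 14.2% of all genes. A matching run of letters is a description of these windows, and the arrays give no reading of methylation or binding there.

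The neighbours of Pdgfra were mostly lower in the preadipose lines, by much less than Pdgfra itself. Of the 44 members, 37 (84.1%) had a lower mean log2 level in the preadipose lines, against 48.6% of all genes. For genes above background in at least 4 lines these shares were 87.5% and 50.4%, with 71.6% on the rest of chromosome 5. The median difference of the members was -0.35 against 0.0033 over all genes. The differences ran from -1.30 for Limch1 to 0.14 for Atp10d, and the median ratio of non-adipogenic to preadipose scaled intensity was 1.53, against 0.979 over all genes. In 28 members every preadipose line lay below every non-adipogenic line, which was so for 7.53% of all genes and 9.55% of those above background in at least 4 lines. In 1 member, Nsun7, every preadipose line lay above on the normalized log2 scale (6.39% of all genes, 7.83% of those above background in at least 4 lines). limma on the 7 line means called 4 members lower (0.951% of all genes, 1.32% of those above background) and none higher (0.583% and 0.839%). At an unadjusted p below 0.05, 30 were lower and 0 higher, with no share of all genes given for that threshold. Since this contrast placed the stretch, nothing is read from these counts. The 4 called members were Usp46, Rasl11b, Fip1l1 and Chic2. In these bulk cultures, fewer cells with a gene's RNA and less RNA per cell cannot be told apart.

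**Figure D1:**
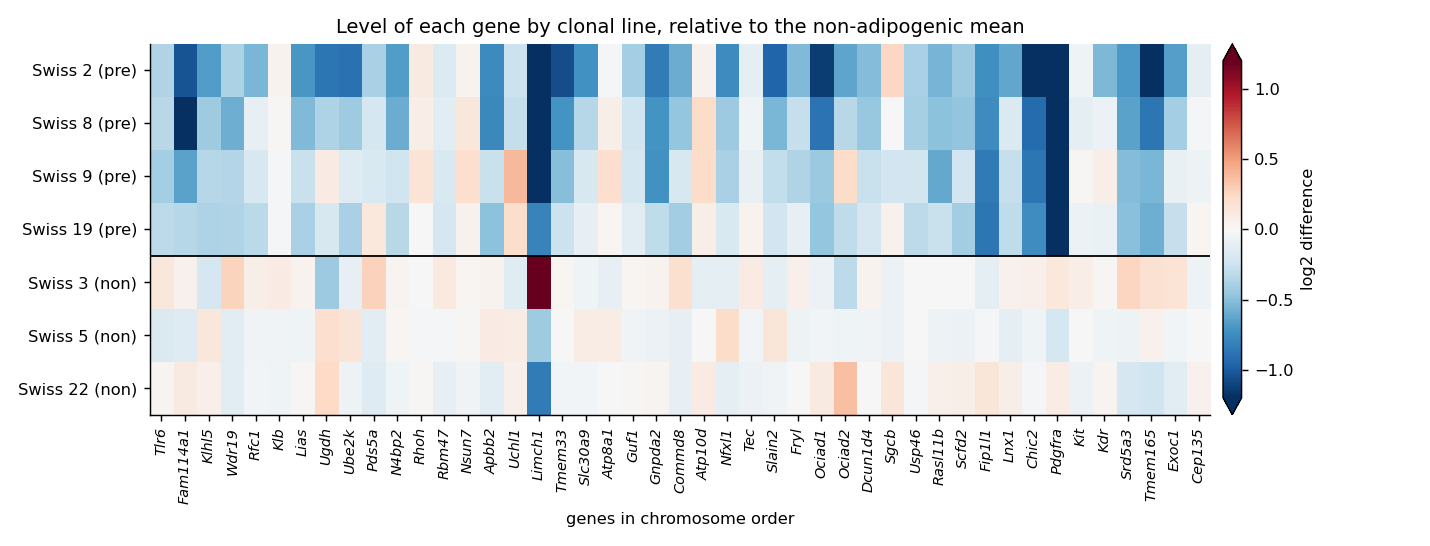
Colour gives the log2 level of each gene in each clonal line minus the mean of the 3 non-adipogenic lines, with the genes in chromosome order from Tlr6 to Cep135 and Pdgfra placed among them; the line separates the 4 preadipose lines (above) from the 3 non-adipogenic lines, and values past the ends of the scale take its end colours. The preadipose rows are blue over most of the stretch and darkest in Swiss 2, with Nsun7, Atp8a1, Atp10d and Sgcb among the exceptions.

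The gene that anchors the stretch, Pdgfra, had scaled intensities of 4398, 4172, 5075 and 7358 in Swiss 2, 8, 9 and 19, and of 29431, 22869 and 27701 in Swiss 3, 5 and 22. Chic2, which encodes a small membrane-associated protein with a cysteine-rich hydrophobic domain, read 1249, 1903, 2027 and 2250 in Swiss 2, 8, 9 and 19 against 4162, 4012 and 4202 in Swiss 3, 5 and 22. The Chic2 classes did not overlap, and the mean over lines was 1857 ± 430 (SD, n = 4) against 4125 ± 99.9 (SD, n = 3), a ratio of 2.22. Fip1l1, a subunit of the complex that cleaves and polyadenylates messenger RNA, read 1130, 1130, 1022 and 1033 in the preadipose lines and 2021, 2284 and 2659 in the non-adipogenic lines. Its preadipose lines were nearly level with one another, at 1079 ± 59.0 (SD, n = 4), and the non-adipogenic mean was 2.15 times as high. In people, loss of the stretch between FIP1L1 and PDGFRA, which holds CHIC2, joins these genes in a fusion known from eosinophilic leukaemia; this is background, and no fusion was measured here.

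Members on both sides of Pdgfra, Tmem165 after it and Ociad1 and Fam114a1 before it, were also lower in every preadipose line. Tmem165, a Golgi membrane protein needed for manganese supply and glycosylation, read 2156, 2981, 3968 and 3687 in Swiss 2, 8, 9 and 19 against 6356, 6200 and 5066 in Swiss 3, 5 and 22. Ociad1, a protein of mitochondria and endosomes, read 2992, 3822, 5528 and 5105 against 6690, 7378 and 8248. Fam114a1, near the Tlr6 end, read 3127, 2292, 4546 and 5399 against 7047, 6472 and 7943. In none of the 3 genes did the classes overlap, and the ratios of the class means were 1.84 for Tmem165, 1.71 for Ociad1 and 1.86 for Fam114a1. Nsun7, of a family of RNA methyltransferases, went the other way by 0.11 on the log2 scale (turning to -0.047 with no normalization), and its scaled intensities overlapped, at 180 to 237 in preadipose and 124 to 199 in non-adipogenic lines.

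The remaining members without overlap covered varied tasks. They included Rfc1, the large subunit of the replication clamp loader, Lias, which makes lipoic acid, Wdr19, a part of the intraflagellar transport machinery, Gnpda2, which deaminates glucosamine 6-phosphate, Usp46, a deubiquitinase, and Srd5a3, an enzyme of dolichol synthesis. Their class ratios were 1.34 for Rfc1, 1.48 for Lias, 1.89 for Wdr19, 1.89 for Gnpda2, 1.44 for Usp46 and 1.89 for Srd5a3. The widest difference was not among them. Limch1, which activates non-muscle myosin, read 255, 309, 446 and 837 in Swiss 2, 8, 9 and 19 and 4945, 1229 and 795 in Swiss 3, 5 and 22. Limch1 was highest in Swiss 3, followed by Swiss 5, and on this probe set Swiss 19 lay above Swiss 22. Another Limch1 probe set above background in at least 4 lines lay at -1.07 without overlap. A further one lay at -0.22 with overlap. Of the 44 members, 4 were above background in fewer than 4 lines. They were Klb, the co-receptor for fibroblast growth factor 21, Rhoh and Tec, signalling genes of blood cells, and Cep135, a centriole protein; Klb and Cep135 were above background in no line.

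Within the dim arrays alone, 35 members were lower in the preadipose lines, with a median difference of -0.42 against 0.011 over all genes. Within the bright arrays alone, 35 were lower as well, with a median of -0.25 against -0.014. These splits set 3 preadipose lines against Swiss 3, and Swiss 19 against 3 non-adipogenic lines. The count of 28 members without overlap fell to 4 with arrays centred on their medians and to 0 with no normalization, settings under which the median difference of all genes was -0.063 and -0.19 and that of the members -0.57 and -0.70. With arrays on 5 different scalings, the one used here included, 35 to 39 of the 44 members lay below the median of all genes.

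Most other probe sets of the members were lower as well. The members had 109 probe sets, of which 92 were lower in the preadipose lines. Among the 37 that were above background in at least 4 lines and had not been used as the gene's value, 35 were lower, with a median of -0.28. Of these 37, 17 lay lower without overlap and 0 higher. On the probe sets used, 28 of the 40 members above background lay lower without overlap. For Chic2, all 4 probe sets lay lower without overlap. For Fip1l1, 1 further probe set above background lay at -1.41 without overlap, and another at -0.048 with overlap.

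Along chromosome 5, the low values formed a stretch that began before Tlr6 and faded after Cep135. In blocks of 25 genes above background in at least 4 lines, taken in order along the chromosome after the values had been seen, the 3 blocks that hold members had median class differences of -0.45, -0.33 and -0.14. The other 30 blocks ranged from -0.17 to 0.023. Over the 764 other genes of chromosome 5 above background the median was -0.091, with 143 genes lower and 13 higher without overlap, and medians of the other chromosomes lay between -0.10 and 0.066. The nearest measured genes outside the ends, Tlr1 and Cracd, had overlapping classes, with differences of -0.10 and -0.02, beside -0.35 for Tlr6 and -0.04 for Cep135 at the ends of the stretch. Tlr1 was above background in 1 line and Cracd in 7 lines. The 5 nearest genes above background before Tlr6, chosen after their values were seen (Klf3, Tbc1d1, Pgm2, Rell1 and Pcdh7), had a median of -0.50, and 4 of them did not overlap. The 5 nearest after Cep135 (Cracd, Aasdh, Ppat, Paics and Srp72) had a median of -0.28, and 2 did not overlap.

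**Figure D2:**
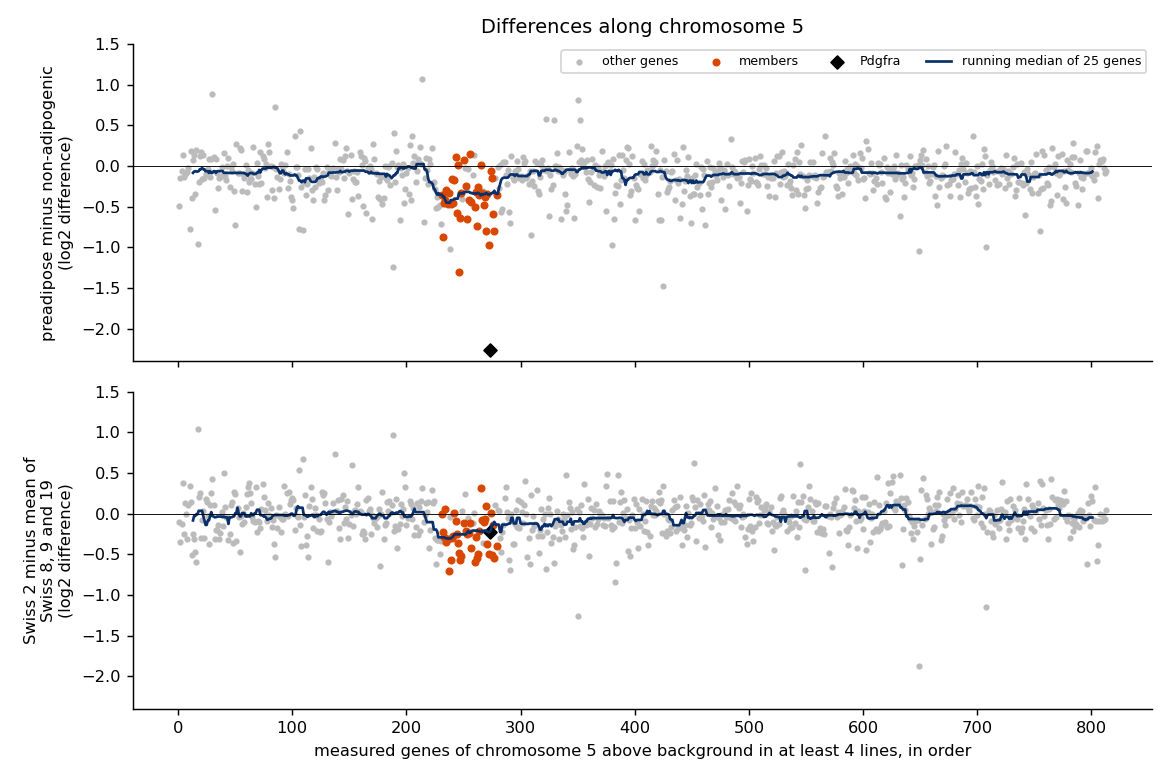
Each point is a gene of chromosome 5 above background in at least 4 lines, placed by its order along the chromosome (horizontal axis, rank); the upper panel gives the preadipose minus non-adipogenic log2 difference and the lower panel the log2 level of Swiss 2 minus the mean of Swiss 8, 9 and 19, with members in orange, Pdgfra as a diamond and the running median of 25 genes as a line. The running median dips in both panels over the members, starting before the first of them.

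Genes of the stretch that are no members were in part lower as well. Of 27 such genes other than Pdgfra, 8 were above background in at least 4 lines. Of these 8, 7 had a lower mean log2 level in the preadipose lines, as did 35 of the 40 members above background. The median class difference was -0.13 over the 8 and -0.37 over the 40. Smim14 (-1.02) and Bend4 (-0.40) lay lower in every preadipose line and Nipal1 (0.13) higher. Clock, left out of the members, had overlapping classes and a difference of -0.14. Of the 4 GABA receptor genes, known from neurons, Gabrg1 and Gabra2 were above background in no line, Gabra4 in 1 and Gabrb1 in 4 lines.

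Within the preadipose class, the members differed between clones, and Swiss 2 was the line in which they were lowest. limma's F test over Swiss 2, Swiss 8 and Swiss 9 called 22 of the 44 members, against 16.4% of all genes (22.5% of genes above background in at least 4 lines, where the members' count was 22 of 40). Swiss 2 had the lowest log2 level in 18 of these 22 (81.8%), against 41.6% of all genes called by this test, and Swiss 9 the highest in 19 (86.4%), against 37.2%. The order Swiss 2 below Swiss 8 below Swiss 9 was seen in 24 of the 44 members (54.5%), against 19.2% of all genes. Among genes above background in at least 4 lines, this order held in 60% of members and 22.4% of the rest of chromosome 5. Within the 40 measured genes on each side, it held in 42.3% of those above background before the stretch and 55.6% after it. Swiss 2 was lowest in 55.1% of the called genes above background on the rest of chromosome 5. The order was thus shared with adjoining genes. Of the 8 genes of the stretch that are no members and were above background in at least 4 lines, the F test called 0. The order held in 4 of these 8 (50%). Their median log2 level in Swiss 2 minus the mean of the other preadipose lines was -0.015, against -0.28 over the 40 members above background. The median over the members of a line's level minus the mean of the other lines of its class, less the same median over all genes, was -0.26, -0.043, 0.13 and 0.13 for Swiss 2, 8, 9 and 19. Taken array by array, the medians had standard deviations of 0.042, 0.043, 0.019 and 0.015. As a share of the non-adipogenic mean, the median member stood at 48.8%, 63.2%, 70.8% and 73.1% in these lines, where the median over all genes was 106%, 101%, 96.6% and 93.7%.

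**Figure D3:**
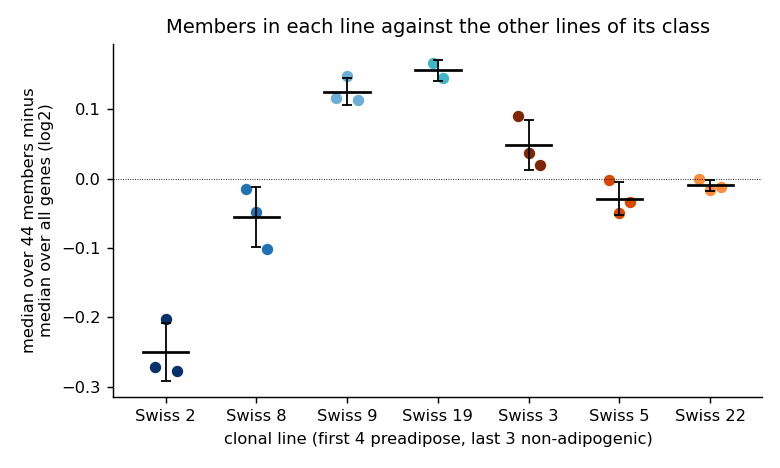
Each point is an array, at the median over the 44 members of its log2 level minus the mean of the other lines of its class, less the same median over all genes (vertical axis, log2); bars give the mean and SD of the arrays of a line. The 3 Swiss 2 arrays, at -0.28 to -0.20, lie below all arrays of Swiss 8 (-0.10 to -0.015), and those lie below all arrays of Swiss 9 (0.11 to 0.15) and Swiss 19 (0.15 to 0.17).

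Ugdh showed the widest range among these 3 lines on the log2 scale, where the added pseudocount compresses differences of dimmer genes. As a ratio of scaled line means, Ociad2 (296 in Swiss 2, 878 in Swiss 9) ranged wider than Ugdh (2639 and 6033). Ugdh encodes UDP-glucose dehydrogenase, which makes the sugar nucleotide for hyaluronan and proteoglycans. It read 2753, 2481 and 2684 on the Swiss 2 arrays, 4411, 4094 and 3814 on those of Swiss 8 and 6117, 5886 and 6096 on those of Swiss 9. The 3 lines did not overlap, and the log2 range was 0.96 (limma F test, adjusted p = 6.05e-08). Ociad2, a neighbour and relative of Ociad1, read 368, 274 and 246 in Swiss 2, 431, 441 and 419 in Swiss 8 and 956, 818 and 861 in Swiss 9. Again no array of one line reached those of the next, with a log2 range of 0.86 (adjusted p = 1.46e-06). Ube2k, a ubiquitin-conjugating enzyme, read 3632, 2765 and 3381, then 5102, 4517 and 4975, then 6196, 6118 and 6156 in the same order of lines, with no overlap and a range of 0.74 (adjusted p = 4.96e-06). Ociad1 took the same order, from 2725 to 3382 in Swiss 2, from 3568 to 3963 in Swiss 8 and from 5170 to 5804 in Swiss 9 (range 0.70, adjusted p = 6.64e-05). Fam114a1 took another order, with Swiss 8 lowest at 1921, 2232 and 2722, below Swiss 2 at 3534, 3081 and 2766 and Swiss 9 at 4235, 4771 and 4632 (range 0.81, adjusted p = 3.87e-05).

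**Figure D4:**
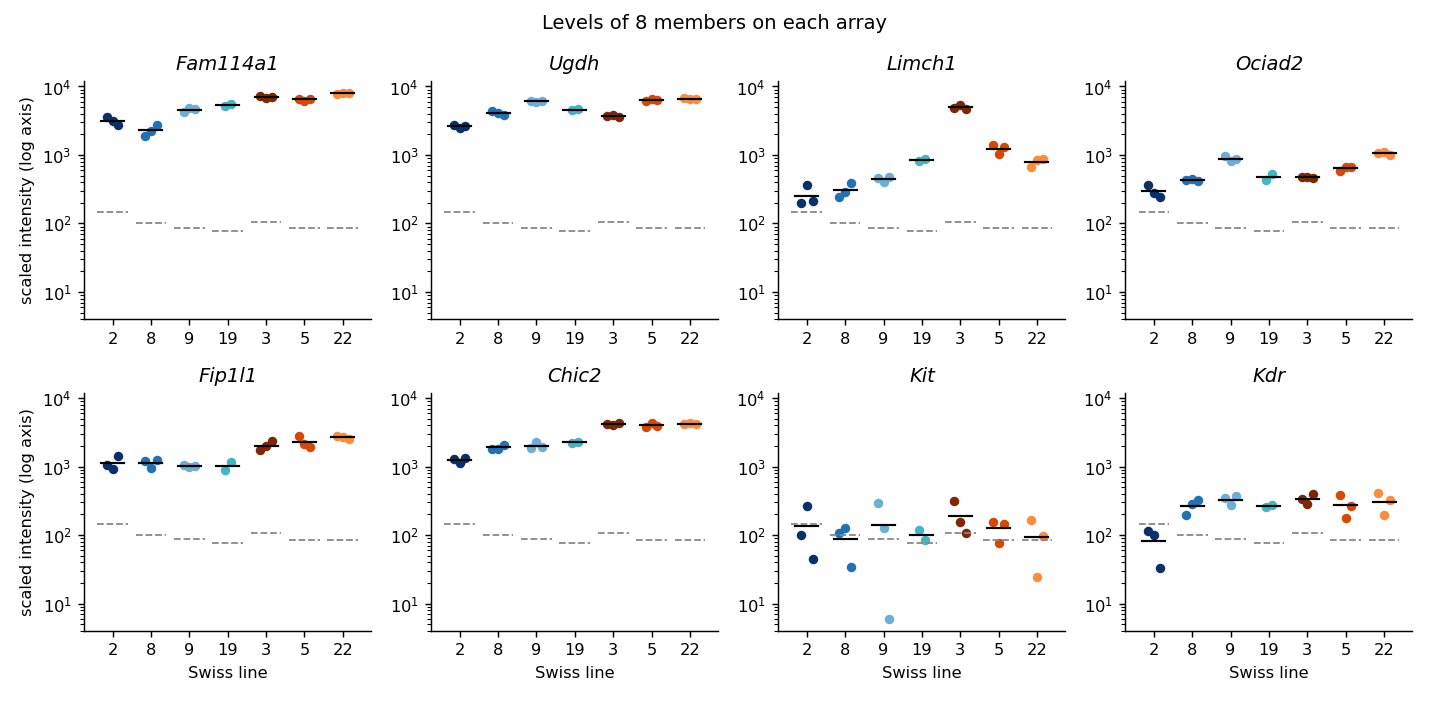
Points give the scaled intensity (log axis) of 8 members on each array, grouped by clonal line (horizontal axis, Swiss line number, preadipose lines first); the black bar is the mean of a line's arrays and the dashed bar its background limit. Chic2 and Fip1l1 separate the classes, Ugdh and Ociad2 rise from Swiss 2 over Swiss 8 to Swiss 9, Limch1 is highest in Swiss 3, and Kit lies around the background limit.

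Contrasts added after these values were seen split the F test in its steps. Swiss 2 was lower than the mean of Swiss 8 and 9 in 20 members (7.06% of all genes, 10% of those above background in at least 4 lines) and higher in 1, Sgcb (6.79% and 8.97%). The 20 lay all along the stretch: Klhl5, Rfc1, Lias, Ugdh, Ube2k, N4bp2, Apbb2 and Uchl1 in its first section, Limch1, Tmem33, Slc30a9, Nfxl1, Slain2, Ociad1 and Ociad2 in the middle, and Lnx1, Chic2, Kdr, Tmem165 and Exoc1 in the last. Of these, Uchl1 (122), Lnx1 (138) and Kdr (83.1) had Swiss 2 means below that line's background limit of 144. Uchl1 in Swiss 8 (92.9) was also below the limit there, 100. Differences of the named members were -0.73 ± 0.05 (SE) for Ugdh, -0.60 ± 0.06 for Ube2k, -0.58 ± 0.06 for Ociad2, -0.50 ± 0.06 for Tmem165, -0.48 ± 0.07 for Ociad1 and -0.44 ± 0.06 for Chic2, with adjusted p from 1.51e-07 to 0.00028. Sgcb, which encodes beta-sarcoglycan, read 449, 281 and 340 in Swiss 2, 176, 173 and 272 in Swiss 8 and 130, 39.2 and 137 in Swiss 9, higher by 0.37 ± 0.08 (adjusted p = 0.00491). Swiss 8 was lower than Swiss 9 in 9 members (3.09% of all genes, 4.31% of those above background) and higher in none (2.06% and 2.86%). At an unadjusted p below 0.05, 1 was higher and 16 lower. No share of all genes is given for that threshold, so nothing is read from these 2 counts. Pdgfra itself did not follow this order: Swiss 2 differed from Swiss 8 and 9 by 0.01 ± 0.12 (adjusted p = 0.984) and Swiss 8 from Swiss 9 by -0.23 ± 0.13 (adjusted p = 0.423).

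Members were lower in the preadipose lines all along the stretch, and Swiss 2 lay lowest most often in its middle. The median class differences were -0.39 over the 14 members above background from Tlr6 to Uchl1, -0.42 over the 13 from Limch1 to Ociad2 and -0.36 over the 13 from Dcun1d4 to Exoc1. Swiss 2 lay lowest of Swiss 2, 8 and 9 in 8 of 14, 13 of 13 and 7 of 13 of these. The Swiss 2 median against the other preadipose lines was -0.29, -0.42 and -0.13 in the 3 sections. In the blocks of 25 genes along chromosome 5 it was -0.31, -0.21 and -0.13 where members lie, and between -0.14 and 0.096 in the other blocks. The Swiss 2 arrays were the dimmest of the series, as given above. On the same 5 scalings, Swiss 2 was lowest in 18 to 21 of the 22 called members, and beyond these values the part of array brightness in the order was not tested.

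In Swiss 19 against Swiss 2, 8 and 9, limma called 10 members higher (6.65% of all genes, 9.31% of those above background in at least 4 lines) and none lower (5.64% and 8.06%). At an unadjusted p below 0.05, 15 were higher and 0 lower. No share of all genes is given for that threshold, so nothing is read from the unadjusted counts. The widest called members on the log2 scale were Fam114a1, at 5198 and 5600 on the Swiss 19 arrays (0.70 ± 0.09, adjusted p = 2.44e-05), and Limch1, at 813 and 860 against 199 to 477 in the other 3 lines (0.67 ± 0.09, adjusted p = 7.53e-05). For both genes the Swiss 19 arrays lay above all arrays of the other 3 lines. Tmem33, of the endoplasmic reticulum membrane, differed by 0.50 ± 0.08 (adjusted p = 0.000487), Gnpda2 by 0.46 ± 0.12 (adjusted p = 0.0154) and Pds5a, a regulator of cohesin, by 0.39 ± 0.08 (adjusted p = 0.00383). Ociad1, Chic2, Fryl, Tmem165 and Ugdh were the other called members, at 0.19 to 0.36, and Pdgfra was higher by 0.69 ± 0.13 (adjusted p = 0.00112). Swiss 19 was on bright arrays and the other 3 lines on dim arrays, so line and brightness cannot be told apart. The 10 became 34 with median centring and 42 with no normalization. The share of all genes called under those scalings is not given, so these counts are not read as results about the members. Without Swiss 19 replicate 1 the count was 4, and without Swiss 19 replicate 2 it was 3.

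Among the non-adipogenic lines, the same medians less those of all genes were 0.045 for Swiss 3, -0.054 for Swiss 5 and -0.013 for Swiss 22. With median centring and with no normalization they were -0.30, 0.0066 and 0.28, so that the sign turned for each line. Between Swiss 5 and Swiss 22, both on bright arrays, 2 members were higher in Swiss 5 (0.709% of all genes, 1.01% of those above background in at least 4 lines) and 1 lower (0.83% and 1.17%). With median centring the counts were 0 higher and 17 lower, and with no normalization 0 and 26, again without a share of all genes beside them. Limch1 read 1381, 1015 and 1292 in Swiss 5 and 663, 840 and 881 in Swiss 22 (0.41 ± 0.10, adjusted p = 0.0435). Tmem165 read 5994, 6566 and 6041 against 4738, 4918 and 5542 (0.29 ± 0.07, adjusted p = 0.0422), with the direction turned to -0.15 by median centring and to -0.29 with no normalization. Ociad2 read 585, 660 and 670 against 1057, 1096 and 996 (-0.41 ± 0.07, adjusted p = 0.00734). None of the 3 genes overlapped between these lines. The count of 2 was kept in 5 of the 20 fits that left out an array, those without any 1 array of Swiss 2 or without Swiss 8 replicate 1 or 3, and the call of Ociad2 was lost without Swiss 22 replicate 2.

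In Swiss 3 against Swiss 5 and 22, the widest log2 differences were those of Limch1 and Ugdh, in opposite directions. limma called 7 members higher (8.03% of all genes, 11.2% of those above background in at least 4 lines) and 3 lower (8.7% and 12.4%) in Swiss 3. Both shares of the 44 depend on the scaling: the counts were 3 higher and 29 lower with median centring, and 1 higher and 37 lower with no normalization. No share of all genes is given for those scalings. Limch1, at 4861, 5290 and 4684, was higher by 1.89 ± 0.09 (adjusted p = 9.09e-11), the widest difference of any member in a contrast within a class. Pds5a, at 1060, 1082 and 1050 against 610 to 740, was higher by 0.42 ± 0.08 (adjusted p = 0.000546), and Wdr19, at 750, 682 and 875 against 359 to 513, by 0.40 ± 0.08 (adjusted p = 0.00198). Both directions turned with median centring, to -0.20 and -0.068, and with no normalization, to -0.44 and -0.31, and held with arrays scaled to the trimmed mean only, at 0.63 and 0.73. Ugdh, at 3668, 3858 and 3575 against 6185 to 6714, was lower, with a log2 difference of -0.65 ± 0.05 (adjusted p = 9.64e-08), as was Ociad2, at 472, 475 and 459 against 585 to 1096, with -0.47 ± 0.06 (adjusted p = 3.13e-05). The arrays of Swiss 3 did not overlap those of Swiss 5 and 22 in any of these 5 genes. Srd5a3, Commd8, Tmem165 and Exoc1 were the other members called higher and Klhl5 the other called lower, and 4 were called higher without Swiss 3 replicate 2. Of the Swiss 3 arrays 2 were dim and those of Swiss 5 and 22 bright, so line and brightness cannot be told apart for 2 of its 3 arrays.

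The receptor neighbours Kit and Kdr stayed low in every line. Kit read 136, 88.9, 142 and 101 in Swiss 2, 8, 9 and 19 and 193, 126 and 95.1 in Swiss 3, 5 and 22, above background in 5 lines. The classes overlapped, and single arrays of a line spread widely, as from 5.87 to 293 in Swiss 9. Kdr read 83.1, 270, 329 and 266 in the preadipose and 341, 274 and 309 in the non-adipogenic lines. Swiss 2 was low, at 115, 102 and 32.8 on its arrays, none above its background limit of 144, and the other 6 lines were above background and overlapped. The F test over Swiss 2, 8 and 9 called Kdr (adjusted p = 0.00131). Over the 7 measured receptors of the wider family, Kit and Kdr included and Pdgfra set aside, the median class difference was -0.092. Among these 7, limma on the line means called 0 lower (0.951% of all genes) and 0 higher (0.583% of all genes). At an unadjusted p below 0.05 it gave 0 lower and 1 higher. Of 9 measured ligands it called 0 lower and 1 higher, with 1 lower and 2 higher at an unadjusted p below 0.05. For neither list is a share of all genes given at that unadjusted threshold. The called ligand was Kitl, the ligand of Kit, at 662 ± 85.9 (SD, n = 4) against 333 ± 82.7 (SD, n = 3). Those lists were named with results of these data known.

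The line-to-line pattern of neighbours was compared next. With each class centred on its mean, the median Pearson r over the 7 lines between genes next to each other in the stretch was 0.18 over 71 pairs, against 0.053 over 18006 pairs of neighbours in the genome. It was 0.54 with median centring and 0.91 with no normalization, and between 0.12 and 0.27 with 1 array left out, lowest without Swiss 19 replicate 1. Among genes above background in at least 4 lines it was 0.23, against 0.085. With Pdgfra, members had a median r of 0.36, and 36 of 44 were above 0, against a median of -0.095 and 44.6% above 0 over all genes. Gnpda2 (0.92), Fam114a1 (0.88) and Rasl11b (0.83), a small GTPase of the Ras family, were the most like Pdgfra, with their highest preadipose level in Swiss 19. Among members above background in at least 4 lines, Atp10d (-0.38), a phospholipid flippase, Nsun7 (-0.38) and Fip1l1 (-0.37) were the least alike, while Rhoh, above background in 1 line, had the lowest r of all members (-0.58). These correlations rest on 7 points that share arrays and normalization, and they are descriptions of these lines.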

How the data were processed

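RNA of 20 samples was labelled as biotinylated cRNA and hybridized to 1 array each, per the labels. The authors deposited linear intensity values of 45101 probe sets, 64 of them controls; how they were summarized and scaled is not given in the sources used here, and the arrays were not on a common scale. Values were taken as log2(intensity + 32), quantile-normalized between arrays, and a gene was the probe set with the highest mean among those with 1 symbol. The pseudocount compresses differences of dim genes. For levels, arrays were scaled to a mean of 500, taken after trimming 2% at each end, and folds are ratios of class means of these. Background was the 95th percentile of 27 unspiked control probe sets.

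limma 3.58.1 in R 4.3.3 was fitted on 7 line means for the classes and on 20 arrays with 1 term per line for lines within a class, adjusted by Benjamini-Hochberg over 18193 genes, with calls at 0.05. Scripts were tested on simulated data. Gene order came from a GRCm38.p6 table. The number of arrays limits the precision.

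Named genes were Pdgfra, Kit, Kdr, up to 5 members by size in each comparison, the 3 most and least like Pdgfra, and the nearest outside each end; others were named after their values were seen. The members and lists were chosen with earlier results of these data known. Alternatives were other normalizations, pseudocounts, probe-set rules, filters, blocks and left-out arrays or lines.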

Additional observations from a re-analysis of the deposited data

Results flagged for a closer look

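Of 43 members and outside genes whose 4 preadipose line means were examined, Wdr19 had 1 line far from the others. The gap between Swiss 8 and the nearest other preadipose line was 0.887 of the whole range of log2 levels, above Dixon's 95% limit for 4 samples. Its scaled intensity was 213 in Swiss 8 and 308 to 333 in Swiss 2, Swiss 9 and Swiss 19. Chance alone passes this limit in about 1 of 20 groups.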

How the results depend on the processing

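The members' median stayed below that of all genes on all 5 scalings tried. Counts of calls are by limma, and the cause of a change was not tested unless fewer arrays or lines, or fewer genes tested, made it. The share of all genes called under each other setting is not given. The changed counts show how calls depend on the setting and are not read as results about the members. Where line and array brightness coincide, no setting parts them, and the low signal over background of Klb, Cep135, Kit and Swiss 2's Kdr limits what their values show.

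Between the classes, the 4 members called lower became 0 with arrays centred on medians, 0 with no normalization, 1 when scaled before the pseudocount, 1 when scaled to the trimmed mean only (chosen after seeing the data), 9 without the dimmest genes, 2 with dim and bright arrays as a block, 0 within the bright arrays and 29 with line as a random block. Leaving out an array or a line gave 1 to 7 lower (7 without Swiss 19, 1 without Swiss 8, 3, 5 or 22, and 2 without Swiss 2 or without Swiss 2 replicate 1, Swiss 8 replicate 3, Swiss 3 replicate 1 or Swiss 19 replicate 1) and 0 higher. The 28 without overlap became 4 with arrays centred on medians and 0 with no normalization, and ranged from 26 to 30 with an array or line left out. The class difference of Nsun7 turned to -0.047 with no normalization. All counts between the classes are given as a description, since that contrast placed the stretch.

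Among Swiss 2, 8 and 9 the count of 22 ranged from 18 to 24 with an array left out. Swiss 2 below Swiss 8 and 9 ranged from 15 to 22, with the higher member at 1, and at 0 with arrays centred on medians and with no normalization. Swiss 8 below Swiss 9 ranged from 7 to 10 and was 4 with no normalization, and the count above was 0 in each left-out fit and 1 with the mean of probe sets.

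For Swiss 5 against Swiss 22, the 2 higher members became 0 with arrays centred on medians, with no normalization, with a pseudocount of 8, when scaled before the pseudocount and when scaled to the trimmed mean only, and 1 with the mean of probe sets; leaving out arrays gave 0 to 2. The 1 lower member became 17 with arrays centred on medians, 26 with no normalization and 0 when scaled before the pseudocount, and 0 to 1 with an array left out. Tmem165 turned to -0.15 and -0.29 with arrays centred on medians and with no normalization. For Swiss 19, the 10 higher became 34 with arrays centred on medians and 42 with no normalization, and 3 to 11 with an array left out; the count lower was 2 with arrays centred on medians and 0 with an array left out. For Swiss 3, the 7 higher became 3 with arrays centred on medians, 1 with no normalization and 3 when scaled to the trimmed mean only, and 4 to 7 with an array left out; the 3 lower became 29 and 37 with arrays centred on medians and with no normalization, and 3 to 4 with an array left out. Pds5a turned to -0.20 and -0.44, and Wdr19 to -0.068 and -0.31, under those same settings.

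The median over members less that of all genes, by line, was the same with arrays centred on medians and with no normalization, at -0.39, -0.22, 0.028 and 0.62 for Swiss 2, 8, 9 and 19 and -0.30, 0.0066 and 0.28 for Swiss 3, 5 and 22. With a pseudocount of 8 it was -0.38 in Swiss 2, 0.21 in Swiss 9 and 0.20 in Swiss 19, and with the larger pseudocount it was -0.13, 0.051 and 0.062, and -0.025 in Swiss 5. Scaled before the pseudocount, it was -0.53, 0.28 and 0.29 for Swiss 2, 9 and 19 and 0.083, -0.092 and -0.029 for Swiss 3, 5 and 22. Scaled to the trimmed mean only, it was -0.52, 0.26, 0.29, -0.027 in Swiss 3 and 0.029 in Swiss 22. With the mean of probe sets it was -0.18 in Swiss 2, 0.098 in Swiss 9 and -0.026 in Swiss 5. With an array left out it ranged from -0.27 to -0.21 in Swiss 2, -0.071 to -0.0096 in Swiss 8, 0.12 to 0.16 in Swiss 9, 0.12 to 0.17 in Swiss 19, 0.025 to 0.058 in Swiss 3, -0.059 to -0.0073 in Swiss 5 and -0.024 to -0.0081 in Swiss 22. The likeness of neighbours, 0.18, was 0.54 with arrays centred on medians, 0.91 with no normalization, 0.23 with a pseudocount of 8, 0.25 when scaled before the pseudocount, 0.23 without the dimmest genes and 0.23 over genes above background, and 0.12 to 0.27 with an array left out.

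Replicate numbers did not pair the arrays: over 57 pairs of same-numbered arrays of different lines, deviations from the line means correlated between -0.068 and 0.094. With the replicate number as a block, 0 members were higher in Swiss 5 than in Swiss 22 and 22 differed among Swiss 2, 8 and 9. For the genes named one by one, 1260 of the values under other settings kept their direction and side of the threshold or moved by less than the spread, 43 no longer passed, 89 moved further and 7 turned.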
